A study of Mus musculus with 2 samples.

Results

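The genes described here are 9 enzymes and enzyme subunits that skeletal muscle uses to handle glycogen and to keep up its ATP, chosen by name and role from the 24421 gene symbols of the count table, with earlier results of these data known and with no threshold on their values. They are Pygm, Phka1 and Phkg1 for glycogen breakdown, Gys1 for glycogen synthesis, Pgam2 and Eno3 for late glycolysis, and Ckm, Ak1 and Ampd1 for the phosphagen and adenine nucleotide pool. RNA-seq was performed on whole-layer back skin of wild-type C57BL6/J mice, with 1 library of skin held under 33% strain for 5 days (Day5_Tension) and 1 library of skin kept without strain over the same 5 days (Day5_Control). The methods describe the animals of the study as 8-week-old females with hair in physiological telogen, whose strain was raised a little each day to make up for skin growth. How many mice each library came from, and whether the skin pieces were pooled, is not given in the sources used here. Total counts were 14152379 for Day5_Control and 11648655 for Day5_Tension. With 1 library per condition no difference has a replicate check, and no p-value is given.

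Whole-layer back skin of the mouse includes a thin sheet of striated muscle under the fat, the panniculus carnosus, and these enzymes are best known from such fibres. In a contracting fibre ATP is rebuilt first from phosphocreatine by creatine kinase, and then from glucose units that glycogen phosphorylase releases from glycogen and that glycolysis carries to lactate. Phosphorylase is switched on by phosphorylase kinase, a complex of alpha, beta and gamma subunits with calmodulin, which couples the breakdown of glycogen to calcium and to hormones. Adenylate kinase and AMP deaminase remove the ADP and AMP that build up during hard work. Most of these steps are carried out by different isoforms outside muscle, encoded by separate genes. The tissue label was checked on 24 genes of mature skeletal muscle, and all 24 were detected in both libraries, with a summed level of 43949 CPM (counts scaled to the library total) in the control and 34741 CPM under tension.

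All 9 genes were lower under tension. Their median log2 ratio of CPM, stretched over control, was -1.07, beside -0.12 over the 16255 genes with more than 3 counts in at least 1 library. The ratios ranged from -2.22 for Phkg1 to -0.50 for Gys1. The 95% counting interval of the ratio lay wholly below 0 for 9 of 9 genes, whereas the same held for 45.3% of the 8618 genes whose counts in the 2 libraries summed to 500 or more and the reverse, an interval wholly above 0, for 21.3%. These intervals are exact Clopper-Pearson intervals, which cover counting error only and compare these libraries, not the conditions. By the fold rule of the methods, with the product of both FPKM values (each with 1 added) above 10 and a ratio of at most 0.5, 6 of the 9 genes were called lower (Pygm, Phka1, Phkg1, Pgam2, Eno3 and Ckm) and 0 were called higher. Across the 10911 genes that passed the filter, 2.44% were called lower and 2.61% higher. With TMM scaling 4 of the 9 were called, beside 1.97% of all genes that passed the filter. That scaling raised every log2 ratio by 0.10, so that Pgam2 and Ckm no longer reached the threshold. When the whole interval had to lie beyond the threshold 5 were called, without Pgam2, and the share over all genes was not computed. In bulk tissue, fewer muscle cells and less of these RNAs per muscle cell cannot be told apart.

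The 3 genes of glycogen breakdown were the lowest of the 9. Pygm, on chromosome 19 of mm10 from 6384399 to 6398459, encodes muscle glycogen phosphorylase, the enzyme that is missing in McArdle disease. It had 11987 counts in the control and 3288 under tension, which is 847 and 282 CPM, and its log2 ratio was -1.59 (interval -1.64 to -1.53), which left 33.3% of the control level. Of all genes that passed the filter, 1.31% had a lower ratio. Phka1, on chromosome X from 102513975 to 102644246, encodes the muscle alpha subunit of phosphorylase kinase, a regulatory subunit. It had 1045 counts in the control and 307 under tension (log2 ratio -1.49, interval -1.67 to -1.30). Phkg1, on chromosome 5 from 129863421 to 129898549, encodes the muscle gamma subunit, which carries the kinase activity. It had 619 counts in the control and 109 under tension, and at -2.22 (interval -2.53 to -1.93) it was 4.67-fold lower, the largest difference of the 9. Its call depends on the pseudocount, because the product of its FPKM values without the added 1 is below 10. Of its exonic bases, 9.68% lie inside exons of Sumf2 on the opposite strand. The ratios of Pygm and Phka1 differed by 0.10 (interval -0.09 to 0.29), which was not detectable at this depth, while Phkg1 lay 0.64 below Pygm (interval 0.34 to 0.94).

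Gys1 had the smallest difference of the 9. This gene, on chromosome 7 from 45434844 to 45456619, encodes the glycogen synthase of muscle and most other tissues, and so it is the one member that builds glycogen. It had 2753 counts in the control and 1604 under tension (log2 ratio -0.50, interval -0.59 to -0.41) and was not called. The liver synthase gene Gys2 had 17 and 4 counts, so Gys1 held over 99% of the synthase counts in both libraries. Of the exonic bases of Gys1, 6.47% lie inside exons of Ruvbl2 on the opposite strand.

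The late glycolysis genes were lower by similar amounts. Pgam2, on chromosome 11 from 5801640 to 5803733, encodes the muscle phosphoglycerate mutase, and had 3729 counts in the control and 1461 under tension (log2 ratio -1.07, interval -1.16 to -0.98). Eno3, on the same chromosome from 70657202 to 70662513, encodes beta-enolase, which acts directly after the mutase. It had 13999 counts in the control and 5101 under tension (-1.18, interval -1.22 to -1.13). The ratio of Eno3 was below that of Pgam2 by 0.10 (interval 0.01 to 0.20).

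The phosphagen and adenine nucleotide genes spread more widely. Ckm, on chromosome 7 from 19404776 to 19422841, encodes the cytosolic muscle creatine kinase. It had by far the most counts, 50821 in the control and 20271 under tension (log2 ratio -1.05, interval -1.07 to -1.02), and held 56.9% of the counts of the 9 genes in the control and 58.9% under tension. The antisense gene A930016O22Rik overlaps 15.5% of its exonic bases and had 9531 and 3961 counts. The library kit named in the labels does not mark strand, so reads in this overlap cannot be assigned to one of them. Ampd1, on chromosome 3 from 103074014 to 103099720, encodes the muscle AMP deaminase and had 1592 and 735 counts (-0.83, interval -0.96 to -0.71). Ak1, on chromosome 2 from 32621758 to 32635058, encodes the cytosolic adenylate kinase, which turns ADP back into ATP and AMP, and had 2697 and 1523 counts (-0.54, interval -0.64 to -0.45). Neither Ampd1 nor Ak1 was called. The ratios of Ak1 and Gys1 differed by 0.05 (interval -0.08 to 0.17), as did those of Pgam2 and Ckm by 0.03 (interval -0.06 to 0.12), and neither difference was detectable at this depth.

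Per exon length the 9 genes covered a wide range, and their order was the same in both libraries. In the control the level went from Ckm at 1233 FPKM (CPM per kilobase of exon union) through Eno3 (569), Pgam2 (314) and Pygm (263) to Ak1 (73.5), Gys1 (40.6) and Ampd1 (31.7). The kinase subunits were far lower, with Phka1 at 11.8 and Phkg1 at 6.72 FPKM. Under tension the same order ran from 597 FPKM for Ckm, 252 for Eno3, 149 for Pgam2 and 87.7 for Pygm to 50.4 for Ak1, 28.8 for Gys1, 17.8 for Ampd1, 4.21 for Phka1 and 1.44 for Phkg1. In neither library did the exact Poisson interval of a gene overlap that of its neighbour in the order. The exon union of Phkg1 spans 6509 bases and its principal transcript 2374, and with principal transcripts as the length Phkg1 lay above Phka1 in the control (18.4 and 12.1 FPKM) but not under tension (3.94 and 4.31 FPKM). Together the 9 genes made up 0.631% of all counts in the control and 0.295% under tension.

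**Figure D1:**
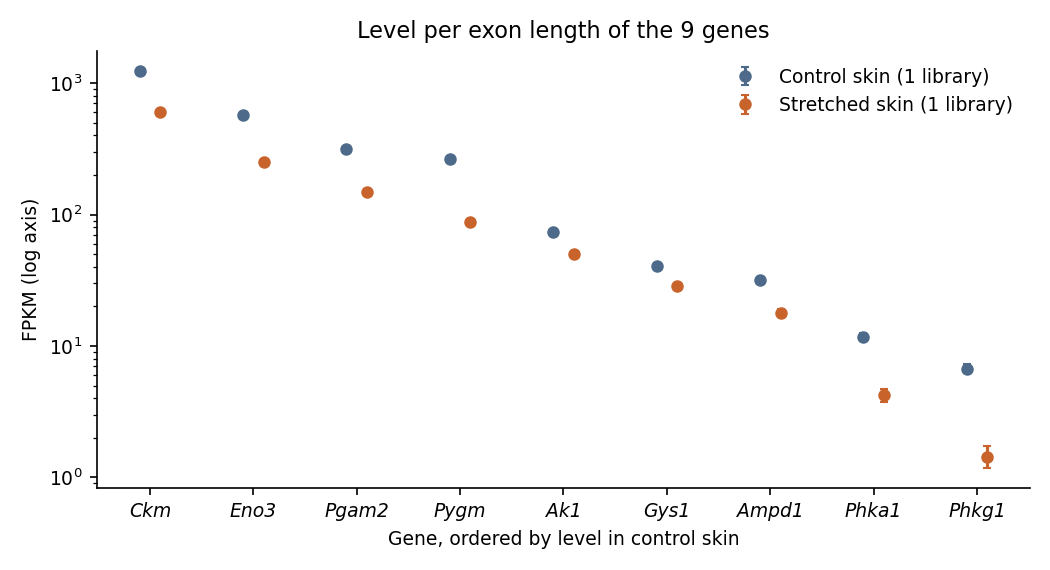
Level of each of the 9 genes in control and stretched skin, in FPKM on a log axis, with 1 library per condition and bars for the exact 95% Poisson interval, which is smaller than the point for most genes. The stretched point lies below the control point for 9 of 9 genes, and the order from Ckm to Phkg1 is the same in both libraries.

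Promoter sequence was available for 8 of the 9 genes (not Ampd1), as windows from 250 bases before to 50 bases after a RefSeq transcript start on GRCm38.p6, the assembly of mm10. The windows of the called genes other than Phka1, and of Gys1 as the gene with the smallest difference, are printed 5′ to 3′ on the strand of the gene, so that the sequence in front of genes with larger and smaller differences can be set side by side. Capitals mark matches on either strand to the motifs E-box (CANNTG), MCAT and MEF2, and no window held a CArG match. Positions are counted from the transcript start, with -1 as the base just before it. The RefSeq starts of Phkg1 and Ckm lie inside the longer gene spans given above.
Pygm, chr19:6384158-6384457, plus strand: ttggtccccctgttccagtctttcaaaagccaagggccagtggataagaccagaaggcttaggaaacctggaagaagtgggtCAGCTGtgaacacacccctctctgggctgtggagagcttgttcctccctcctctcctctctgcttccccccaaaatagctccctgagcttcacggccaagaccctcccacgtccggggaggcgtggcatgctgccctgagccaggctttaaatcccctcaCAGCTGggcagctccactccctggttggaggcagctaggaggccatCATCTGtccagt
Phkg1, chr5:129879039-129879338, minus strand: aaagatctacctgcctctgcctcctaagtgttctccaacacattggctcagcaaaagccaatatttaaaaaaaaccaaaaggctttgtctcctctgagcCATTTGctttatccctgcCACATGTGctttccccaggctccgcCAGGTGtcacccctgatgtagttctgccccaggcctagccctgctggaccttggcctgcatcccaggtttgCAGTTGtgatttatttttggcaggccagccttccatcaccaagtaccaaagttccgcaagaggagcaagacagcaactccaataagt
Pgam2, chr11:5803747-5804046, minus strand: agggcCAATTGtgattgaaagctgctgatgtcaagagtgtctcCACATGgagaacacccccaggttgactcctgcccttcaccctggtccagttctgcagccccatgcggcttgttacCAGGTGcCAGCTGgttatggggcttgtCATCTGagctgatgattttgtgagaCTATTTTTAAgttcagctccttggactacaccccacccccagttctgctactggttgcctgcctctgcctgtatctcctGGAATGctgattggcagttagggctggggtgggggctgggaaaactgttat
Eno3, chr11:70656926-70657225, plus strand: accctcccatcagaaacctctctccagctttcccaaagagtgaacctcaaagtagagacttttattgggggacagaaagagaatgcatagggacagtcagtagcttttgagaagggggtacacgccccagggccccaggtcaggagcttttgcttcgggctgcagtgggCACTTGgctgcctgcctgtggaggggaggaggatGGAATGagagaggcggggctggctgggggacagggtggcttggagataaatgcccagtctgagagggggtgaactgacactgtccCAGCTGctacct
Ckm, chr7:19410844-19411143, plus strand: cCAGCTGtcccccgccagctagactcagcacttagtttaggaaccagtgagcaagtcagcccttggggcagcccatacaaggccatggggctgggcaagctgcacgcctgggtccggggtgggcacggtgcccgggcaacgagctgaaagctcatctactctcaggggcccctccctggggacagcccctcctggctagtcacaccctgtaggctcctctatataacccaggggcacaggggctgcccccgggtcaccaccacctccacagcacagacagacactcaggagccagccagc
Gys1, chr7:45434589-45434888, plus strand: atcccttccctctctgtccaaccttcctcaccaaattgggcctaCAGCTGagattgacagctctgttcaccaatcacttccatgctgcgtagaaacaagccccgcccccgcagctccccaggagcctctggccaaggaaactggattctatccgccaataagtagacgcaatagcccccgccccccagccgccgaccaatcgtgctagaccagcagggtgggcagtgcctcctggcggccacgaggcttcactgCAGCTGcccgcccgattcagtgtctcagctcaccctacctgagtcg

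At least 1 E-box was present in all 11 windows of the 8 genes (Ak1 has 4 windows), but 72.3% of the 32851 windows of the whole table held one too, so its presence alone does not set them apart. The 11 windows held 27 E-box matches in all, beside a mean of 1.39 per window over the whole table, and this difference was not tested. The window of Phkg1, the gene with the largest difference, held 5 E-boxes, of which a pair overlaps, as did that of Pgam2 without overlap, and the window of Ckm held 1, at -249. The E-box letters CAGCTG were present in the printed windows of Pygm, Pgam2, Eno3, Ckm and Gys1, but not of Phkg1. A MEF2 match was found in 2 of the 11 windows, against 3.19% of all windows. One starts at -80 in the window of Pgam2 and the other at 21 in a window of Ak1. An MCAT match (CATTCC or its complement) was found in the windows of Pgam2 (at -1) and Eno3 (at -47), against 14.7% of all windows. A match of this kind is a description of the letters in the window and not a measured site.

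Each of the 9 genes was next compared with the genes of related isoforms, because these pairs were counted in the same libraries and a share within a pair does not depend on the scaling. Outside muscle, glycogen phosphorylase is encoded by Pygl (liver) and Pygb (brain and other tissues). Pygl had 775 counts in the control and 502 under tension (log2 ratio -0.35, interval -0.51 to -0.18), and Pygb had 1543 and 1021 (-0.31, interval -0.43 to -0.20). Pygm therefore made up 88.6% of the counts of Pygm and Pygb in the control (interval 88.0 to 89.1) and 76.3% under tension (interval 75.0 to 77.6). The kinase subunits shifted further. Phka2, the liver alpha subunit, had 404 and 346 counts (0.06, interval -0.15 to 0.27), and the share of Phka1 in the pair was 72.1% in the control (interval 69.7 to 74.4) and 47.0% under tension (interval 43.1 to 50.9). Phkg2, the gamma subunit of liver and testis, had 270 and 279 counts (0.33, interval 0.08 to 0.57), and the share of Phkg1 was 69.6% (interval 66.5 to 72.6) and 28.1% (interval 23.7 to 32.8). In both kinase pairs the muscle isoform held most of the counts in the control. Under tension Phkg1 held the minority, while the interval of Phka1 included equal shares. Phkb, the beta subunit that muscle and other tissues share, had 979 and 540 counts (-0.58, interval -0.73 to -0.42). Of the 76-base stretches of Phkg2, 16.5% also occur in transcripts of other genes, so its counts are uncertain.

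The late glycolysis genes also took up a smaller share of their pairs under tension. Pgam1, the mutase of most tissues, had 2695 counts in the control and 2222 under tension (log2 ratio 0.00, interval -0.08 to 0.08), and the share of Pgam2 in the pair was 58.0% (interval 56.8 to 59.3) and 39.7% (interval 38.1 to 41.3). Per length Pgam2 kept the majority, with 76.6% of the summed FPKM in the control and 60.8% under tension. Eno1, the enolase of most tissues, had 517 and 470 counts (0.14, interval -0.04 to 0.33). Eno2, the neuronal enolase, had 60 and 132 counts (1.42, interval 0.97 to 1.88). The share of Eno3 in the pair with Eno1 was 96.4% in the control and 91.6% under tension. Pgam1 shares 34.8% and Eno1 22.9% of their 76-base stretches with other genes, mostly pseudogenes, and their levels may be understated. Pygm, Phka1, Pgam2, Eno3, Ampd1 and Ak1 share none, whereas Phkg1 shares 8.91%, Ckm 8.16% and Gys1 4.39%.

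Among the phosphagen pairs, Ckb, the brain creatine kinase, had 1120 and 1069 counts (0.21, interval 0.09 to 0.34), and the share of Ckm in the pair was 97.8% (interval 97.7 to 98.0) in the control and between 94.7 and 95.3% (interval) under tension. The exception was Ckmt2, the creatine kinase of muscle mitochondria, which had 2074 counts in the control and 404 under tension (-2.08, interval -2.24 to -1.92) and was called lower, so that the share of Ckm against Ckmt2 was higher under tension (98.0%) than in the control (96.1%). Ampd2 and Ampd3, the AMP deaminases of most other tissues and of red blood cells, had log2 ratios of 0.01 (interval -0.15 to 0.17) and 0.42 (interval 0.23 to 0.61), and the share of Ampd1 against Ampd2 was 69.9% in the control and 56.5% under tension. Against Ak4, the mitochondrial matrix kinase (-0.34, interval -0.56 to -0.12), the share of Ak1 was 85.7% (interval 84.5 to 86.9) in the control and 83.9% (interval 82.1 to 85.6) under tension, and these intervals overlap.

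**Figure D2:**
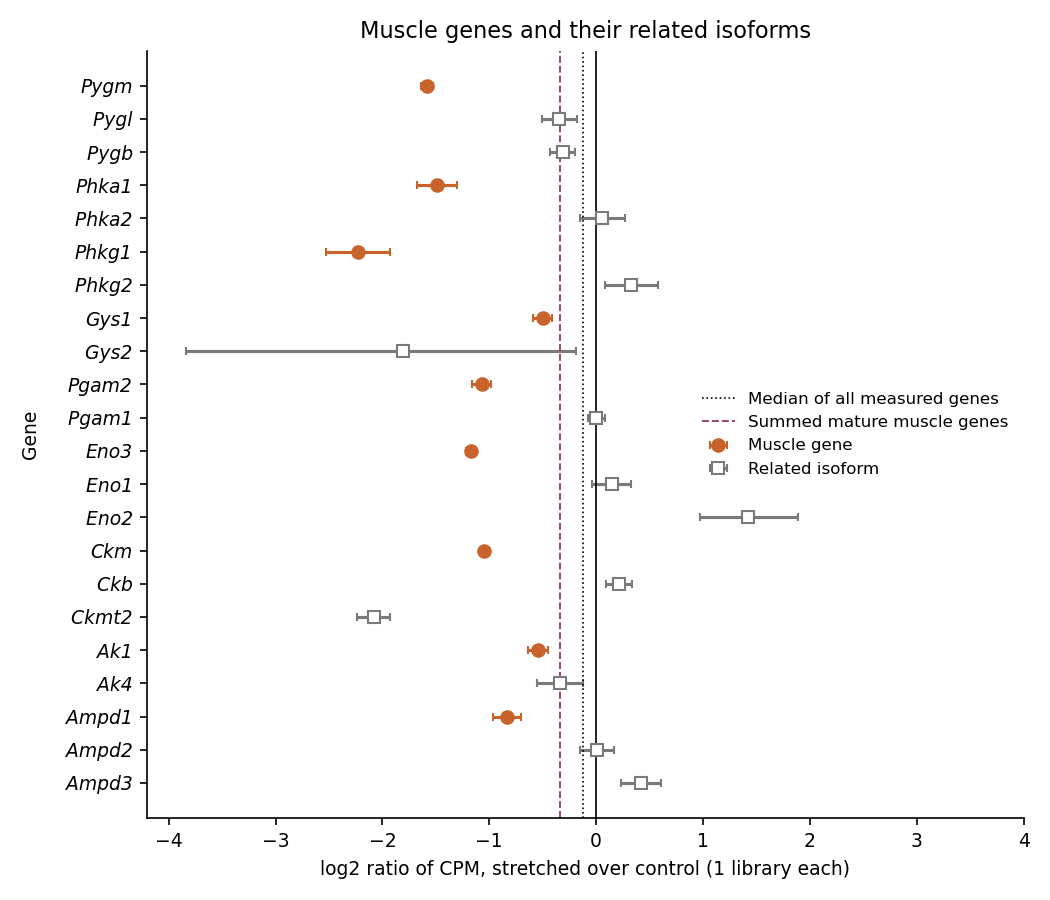
Log2 ratio of CPM, stretched over control, for the 9 genes (filled circles) and related isoforms listed under them (open squares), with exact 95% counting intervals, 1 library per condition. The dotted line is the median of all measured genes (-0.12) and the dashed line the summed mature muscle genes (-0.34). All 9 filled circles lie left of the dashed line, while among the squares Ckmt2 and Gys2 lie far to the left and Eno2 to the right.

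Summed over isoforms, the level of most of these enzymes was lower by less than that of the muscle gene. The exception was glycogen synthase, with 41.1 FPKM in the control and 28.9 FPKM under tension (log2 ratio -0.51), since Gys2 adds almost nothing to Gys1. Summed glycogen phosphorylase (Pygm, Pygb and Pygl) was 294 FPKM in the control and 112 FPKM under tension, a log2 ratio of -1.39. Summed alpha subunits of phosphorylase kinase were 16.5 and 9.11 FPKM (-0.86) and summed gamma subunits 11.5 and 7.43 FPKM (-0.63), close to the beta subunit at 9.33 and 6.25 FPKM (-0.58). This closeness depends on the exon union as the length. With principal transcripts Phkg1 had 18.4 FPKM in the control and 3.94 under tension, Phkg2 10.4 and 13.0, and Phkb 12.9 and 8.66. Summed cytosolic creatine kinase (1260 and 629 FPKM) and summed enolase (577 and 262 FPKM, -1.14) followed the muscle gene closely, because Ckm and Eno3 held 97.8% and 98.7% of the summed FPKM in the control. For AMP deaminase (-0.43) and phosphoglycerate mutase (-0.74) the other isoforms made up a larger part. The levels of Eno1 and Pgam1 may be understated, as given above. The sums of enolase and phosphoglycerate mutase may then be understated too, and the shares of Eno3 and Pgam2 overstated.

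The 9 genes were then set against the muscle genes counted in the same libraries. The 24 mature skeletal muscle genes had a median log2 ratio of -0.27, and they took up 4.39% of all counts in Day5_Control and 3.47% in Day5_Tension (log2 ratio of the sums -0.34). Relative to this sum, 9 of 9 genes were lower under tension, with counting intervals wholly below 0 and a median change of -0.73. Per 1000 counts of mature muscle genes, Pygm had 19.3 counts in the control and 8.12 under tension (log2 change -1.25, interval -1.30 to -1.19), and Ckm 81.7 and 50.1 (-0.71, interval -0.73 to -0.68). Gys1 had 4.43 and 3.96 (-0.16, interval -0.25 to -0.07) and Ak1 4.34 and 3.76 (-0.20, interval -0.30 to -0.11). Among the 24 muscle genes, 2 had a lower ratio than Pygm, 3 a lower ratio than Ckm and 7 a lower ratio than Gys1. The intervals take the muscle sum as fixed. Without Acta1, the muscle gene with the most counts, 8 of the 9 intervals lay below 0, and that of Gys1 (-0.08) included 0.

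The muscle reference is itself not uniform. Myh4, the myosin heavy chain of the fastest (type IIb) fibres, had 91029 counts in the control and 3156 under tension (log2 ratio -4.57), while Myh1 (1.10) and Myh2 (1.46), the heavy chains of the other fast fibres, were called higher. The 12 fast fibre genes had a median of -0.58 and 4 were called lower, among them Myh4, Mybpc2 (-2.11), a fast myosin-binding protein, and Pvalb (-2.11), the calcium buffer of fast fibres. All of them except Pvalb are also in the list of mature skeletal muscle genes. Relative to the sum of the fast fibre genes (log2 ratio -0.70), 7 of the 9 genes remained lower with a median of -0.37, whereas Gys1 (0.20) and Ak1 (0.16) turned higher. This turn rests on Myh4, since without it the fast fibre sum had a ratio of -0.28 and 9 of 9 genes were lower than it, with a median of -0.79. The 10 slow fibre genes were divided, with a median of 0.56, 7 intervals above 0, 2 below and 1 that included 0. Tnni1 (4.77) and Tnnc1 (3.87), slow troponin subunits, were called higher, while Myh7, the slow myosin heavy chain, had 106 and 13 counts (-2.75) and was among the 3 that did not pass the filter. All 10 genes of developing muscle were higher, and the 9 that passed the filter were called, with a summed level of 130 CPM in the control and 1587 CPM under tension. The myosin heavy chain genes are close paralogs, and how the counting treated reads that match several of them is not given in the sources used here.

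**Figure D3:**
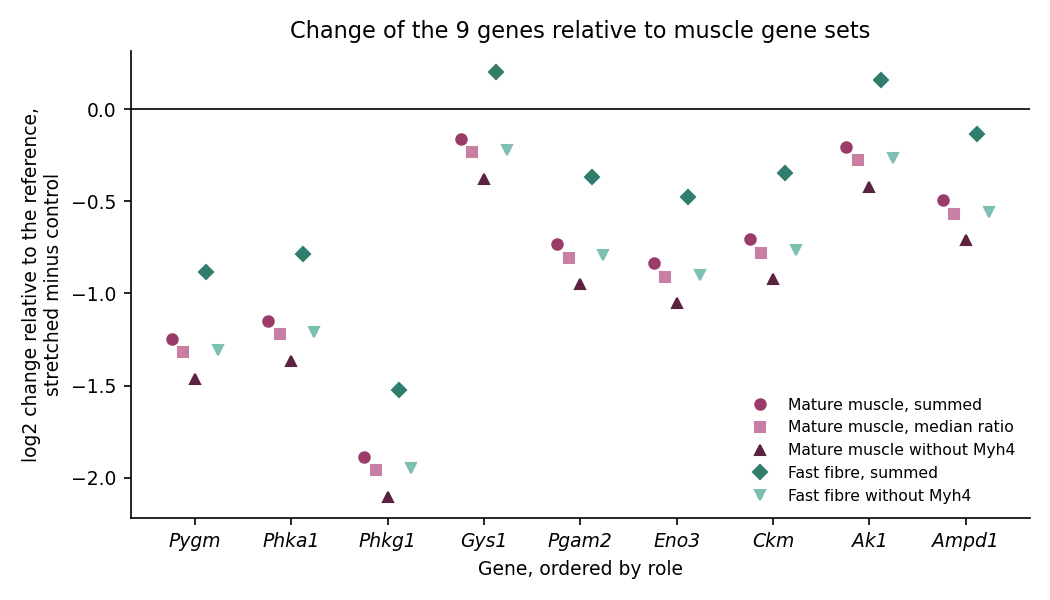
Log2 change of each of the 9 genes relative to 5 muscle references, stretched minus control, with 1 library per condition and without error bars. With 4 of the references all 9 points lie below 0, and with the summed fast fibre genes Gys1 and Ak1 lie above 0 at 0.20 and 0.16. The references share most of their genes and are not independent, and those without Myh4 were chosen after seeing the data.

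Other cell types of the skin moved as well, and their part in these ratios was not tested. The 8 adipocyte genes were all lower (median -0.68, summed level 1461 CPM in the control and 937 CPM under tension), and 0 were called. The 8 fibroblast genes had a median of 0.30, and their summed level was 42066 CPM and 78466 CPM, nearly all of it collagen. The 10 keratinocyte genes had a median of 0.01 with 5 intervals above 0 and 4 below, the 6 smooth muscle genes a median of 0.32, and the 12 macrophage genes a median of 1.28 with 9 called higher. No gene of these lists had 0 counts in either library.

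The rest of the glycogen pathway was mixed. Of 20 other glycogen genes, all measured, 12 had an interval wholly below 0 and 4 wholly above, with a median log2 ratio of -0.33, and of the 16 that passed the filter 2 were called lower and 0 higher. The called genes were Ppp1r3a (531 and 175 counts, -1.32, interval -1.58 to -1.07), the glycogen-targeting subunit of protein phosphatase in muscle, and Ppp1r3c (1369 and 483 counts, -1.22, interval -1.37 to -1.07), a targeting subunit found in many tissues. The branching enzyme gene Gbe1 (-0.86) and Ugp2 (-0.82), which makes UDP-glucose, had intervals below 0 and were not called. Stbd1, a glycogen-binding protein (329 and 419 counts, 0.63, interval 0.42 to 0.84), and Gaa, the lysosomal glucosidase (0.38, interval 0.28 to 0.48), had the largest values above 0. The glycogenin gene Gyg, which primes new glycogen, had 1387 and 1288 counts (0.17, interval 0.06 to 0.28).

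Among 22 other glycolysis and glucose transport genes, 12 had an interval below 0 and 4 above, with a median of -0.22, and of the 20 that passed the filter 3 were called lower and 0 higher. Fbp2, the muscle fructose bisphosphatase (189 and 48 counts, -1.70, interval -2.18 to -1.23), Slc2a4, the insulin-responsive glucose transporter of muscle and fat (1805 and 597 counts, -1.32, interval -1.45 to -1.18), and Slc16a3, a lactate exporter of glycolytic cells (912 and 320 counts, -1.23, interval -1.42 to -1.04), were called. The muscle phosphofructokinase gene Pfkm (-0.72) and Aldoa (-0.89), the aldolase of muscle and other tissues, were lower by less than Pgam2 and Eno3. Slc2a1, the glucose transporter of most tissues, had 602 and 719 counts (0.54, interval 0.38 to 0.70).

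Of the 17 other phosphagen and adenine nucleotide genes, 16 had more than 3 counts in a library. Their median was -0.07 (0.03 with TMM scaling), with 7 intervals below 0 and 4 above, and besides Ckmt2 the muscle adenylosuccinate synthase gene Adssl1 was called lower (2514 and 976 counts, -1.08, interval -1.19 to -0.98). This enzyme acts on the IMP that AMP deaminase makes. Gatm, which catalyses the first step of creatine synthesis, was called higher (204 and 474 counts, a CPM ratio of 2.82, log2 interval 1.26 to 1.74), and Gamt, which catalyses the last step, had 133 and 167 counts (0.61, interval 0.27 to 0.95). The muscle ADP/ATP carrier gene Slc25a4 had a ratio of -0.74 and the more general Slc25a5 of -0.30. The 18 genes of energy sensing and regulation had a median of 0.03, with 5 intervals below 0, 5 above, and 0 of the 15 that passed the filter were called. Prkaa2, a catalytic subunit of AMP-activated protein kinase (650 and 240 counts, -1.16, interval -1.38 to -0.94), and the coactivator gene Ppargc1a (123 and 43 counts, -1.24, interval -1.77 to -0.72), which did not pass the filter, had the lowest ratios. Prkag3, a regulatory subunit of the same kinase found mainly in glycolytic muscle, had 172 and 261 counts (0.88, interval 0.60 to 1.17), and Mef2c, a transcription factor of muscle and other tissues, had 1820 and 2181 counts (0.54, interval 0.45 to 0.63).

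**Figure D4:**
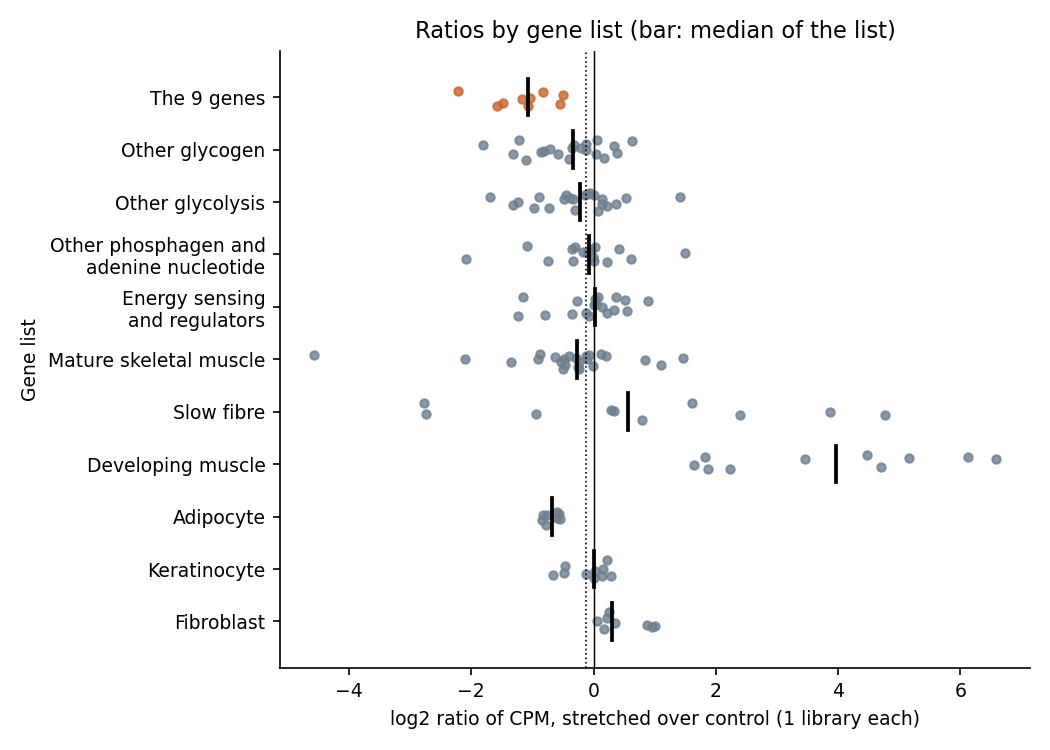
Log2 ratio of CPM, stretched over control, of each measured gene in 11 gene lists, with a bar at the median of each list and a dotted line at the median of all measured genes, 1 library per condition. The 9 genes lie between -2.22 and -0.50 with a bar at -1.07, while the bars of the 4 pathway lists lie between -0.33 and 0.03.

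The genes outside these lists whose log2 ratio was nearest to the median of the 9, among genes of at least 100 FPKM in the control, were Gpd1 (-1.05), Ankrd2 (-1.03), Fasn (-1.01), A930016O22Rik (-0.99) and Krt23 (-0.91). The likeness is a single difference over 2 libraries, at most 0.16 on the log2 scale, and the genes are of mixed kinds. Gpd1 encodes a glycerol phosphate dehydrogenase of muscle and fat, Ankrd2 an ankyrin repeat protein of muscle, Fasn fatty acid synthase and Krt23 a keratin, and A930016O22Rik is the antisense gene that overlaps Ckm.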

How the data were processed

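RNA from whole-layer back skin was sequenced as single-end reads of 76 bases, with quality filtering by the FASTX-Toolkit before TopHat2 alignment to mm10, as the methods describe. The authors deposited read counts per gene symbol, not normalized, for 24421 symbols. The counting tool, the gene annotation and the handling of strand are not given in the sources used here. Columns were matched to samples by their labels.

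CPM was computed with the library totals and FPKM with the exon union of each gene in GENCODE M21 (23376 symbols matched by name, 651 by synonym, 394 without length). Ratios carry exact 95% Clopper-Pearson intervals, counts below 3 were raised to a floor of 3, and differences between 2 members carry an interval from the summed counting variance. No test across replicates was possible. Calls used the thresholds of the methods, which were applied there to FPKM from Cufflinks. Here they were applied to FPKM computed from the counts, with 1 added to each since no pseudocount is stated, so the calls need not match those of the study. Other scalings, pseudocounts, filters, gene lengths and muscle references were tried as alternatives. Ratios, intervals and calls were tested on simulated counts with counting error only. These hold no variation between animals or libraries, so they check the computation and not that variation.

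The text names the 9 genes, their related isoforms, up to 2 genes with the largest rise and 2 with the largest fall of each gene list among those with at least 100 counts over both libraries (for the lists of other skin cells only the medians and sums are given), and the 5 most similar genes. Phkb, Gbe1, Ugp2, Gyg, Pfkm, Aldoa, Slc16a3, Slc25a4 and Slc25a5 fall outside this rule, and their values had been seen when they were picked. Some genes that the rule or the lists include are not reported here. The members and lists were chosen with earlier results of these data known. Promoters are RefSeq sequences on GRCm38.p6. Python 3.11.15, R 4.3.3, edgeR 4.0.16 and DESeq2 1.42.0 (scaling factors only) were used.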

Additional observations from a re-analysis of the deposited data

How the results depend on the processing

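Scaling adds one shift to every log2 ratio, which was 0.10 for TMM, 0.11 for DESeq2 size factors, 0.10 for the upper quartile and 0.06 when the 50 most counted genes were taken out of the totals. The median of the 9 genes was then -0.97, -0.96, -0.97 and -1.01. The number called lower was 4 with the first 3 scalings (without Pgam2 and Ckm), 4 with a product of FPKM above 100 (without Phka1 and Phkg1), and 5 or 6 in the other 8 alternatives. Relative to muscle genes, the median of -0.73 became -0.37 against the fast fibre sum, -0.95 without Myh4 and -1.77 against the slow fibre sum. The fast fibre sum follows Myh4, and the cause of the other shifts was not tested. Principal transcript lengths, the slow fibre reference and both references without Myh4 were chosen after seeing the data. None of the scalings turned the direction of any of the 9 CPM ratios, whereas relative to the fast fibre sum Gys1 (0.20) and Ak1 (0.16) were higher. The median of the other phosphagen and adenine nucleotide genes, -0.07, became 0.03, 0.04 and 0.03 under the first 3 scalings. No paired analysis was possible because each condition has a single library, so leaving one out was not possible either. Depth limits Phkg1 most among the 9, and Gys2 among the isoforms.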

Other observations

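The 8 genes of oxidative energy supply in muscle, of which Ckmt2 is also in the comparisons above, went both ways. Of these, 6 had an interval below 0 and 2 above, and the median log2 ratio was -0.35, with 7 genes past the filter for calls. Mb, which encodes the oxygen store myoglobin, had 2417 counts in the control and 4249 under tension (1.09, interval 1.02 to 1.17) and was called higher, and Fabp3, a fatty acid-binding protein of muscle and heart, had 583 and 596 counts (0.31, interval 0.15 to 0.48). Cox7a1, a muscle subunit of cytochrome c oxidase, had 225 and 87 counts (-1.09, interval -1.46 to -0.73) and was called lower, as was Ckmt2.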
